A study of Mus musculus with 2 samples.

Results

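*Calb1*, *Calb2* and *Pvalb* encode calbindin D28k, calretinin and parvalbumin, EF-hand proteins that bind calcium inside neurons. The 3 genes were chosen by name from the 14425 genes of the deposited single-cell table, all 3 were found there, and all 3 passed the minimum on level and detection given below. The cells are neurons of the mouse spiral ganglion, the relay between the hair cells of the cochlea and the brainstem, and come from 2 libraries with 1 library per group. All mice carried *Runx1*-CreER, a tamoxifen-inducible Cre recombinase expressed where *Runx1* is, and the Ai14 tdTomato reporter, received tamoxifen on postnatal day 1 and were harvested on postnatal days 27 to 29. The control group, iCON, was *Runx1*-CreER/+; Ai14/+. The other group, iCKO, was *Runx1*-CreER/*Runx1*F; Ai14/+, with a floxed *Runx1* allele opposite the Cre allele. Cells of both sexes were sorted for tdTomato, so the cells measured are those in which the driver had been active; how many mice were pooled in each library is not given in the sources used here.

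EF-hand buffers take up calcium that enters a neuron during activity and release it later, which shapes the size and duration of calcium signals. They are standard markers of neuron classes, and in the spiral ganglion the level of calretinin RNA is used to tell subtypes of type I neurons, the neurons that contact inner hair cells, from each other. Type Ia neurons are known for high *Calb2*, type Ib for *Calb1*, and type Ic for *Lypd1*, which encodes a GPI-anchored prototoxin of the Ly6 family. Type II neurons contact outer hair cells.

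The shared feature of the members is the EF-hand loop, whose residues hold the calcium ion. A search of the annotated mouse coding sequences (GENCODE M21, GRCm38) with a pattern for this loop found 4 matches in the 261 codons of *Calb1*, 5 in the 271 codons of *Calb2* and 2 in the 110 codons of *Pvalb*. One loop of each is shown to let the family resemblance be read directly, 5′ to 3′ on the coding strand. Capitals mark the codons of loop positions 1, 3, 5, 7, 9 and 12, which contribute to calcium binding.
Calb1 loop 2: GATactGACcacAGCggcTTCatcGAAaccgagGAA
Calb2 loop 3: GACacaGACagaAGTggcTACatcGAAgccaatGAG
Pvalb loop 1: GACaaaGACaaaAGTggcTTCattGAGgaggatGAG
Loop 2 of *Calb1* covers codons 111 to 122 in exon 5 (chr4:15895644-15895679, plus strand). Loop 3 of *Calb2* covers codons 120 to 131 in exon 5 (chr8:110149362-110149397, minus strand), and loop 1 of *Pvalb* covers codons 52 to 63 in exon 2 (chr15:78202526-78202561, minus strand). The genes lie on 3 chromosomes: *Calb1* at chr4:15881264-15908064, *Calb2* at chr8:110137502-110168210 and *Pvalb* at chr15:78191114-78206400. The coding sequences of *Calb1* and *Calb2* were identical at 65.9% of 778 aligned bases, and the longest run of identical bases between any pair of the 3 transcripts was 12.

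The iCON library held 462 cells and 22011292 UMIs (unique molecular identifiers, counts of RNA molecules), with a median of 49725.5 per cell and a range of 16168 to 93322. The iCKO library held 407 cells and 13743824 UMIs, with a median of 33602 and a range of 18582 to 79487. No cell barcode occurred in both. All 6 neuron markers had a UMI in at least 90% of cells of each library. The libraries also differed in other ways: *Xist* without Y-linked RNA was found in 54.5% of iCON and 78.4% of iCKO cells, the summed level of 6 myelin genes had a median of 29.5 per 10000 UMIs in iCON and 15.6 in iCKO, and 30 iCON and 7 iCKO cells formed a type II-like cluster. *Runx1*, the targeted gene, averaged 0.867 per 10000 UMIs in iCON and 1.12 in the library labelled iCKO, so its RNA was not lower there; a 3′ count does not check a deletion that leaves the 3′ end of the RNA. With 1 library per group, no difference below has a replicate check or a p-value, cells are not replicates, and genotype and library cannot be told apart.

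*Calb2* and *Calb1* were both higher in the iCKO library, while *Pvalb* differed little. Levels are UMIs per 10000 UMIs of a cell, and a ratio is the log2 of mean iCKO level to mean iCON level, 0.05 being added to both. *Calb2* averaged 58.1 ± 79.2 in iCON and 133 ± 94.0 in iCKO (SD over cells), a ratio of 1.19 on the log2 scale. *Calb1* averaged 0.375 ± 0.818 against 1.03 ± 1.58, a ratio of 1.34. Thus 2 of the 3 members, *Calb1* and *Calb2*, were past 1.5-fold, both higher in iCKO. The background was the 3761 genes that averaged 0.5 per 10000 and were found in 25% of cells in either library, of which 2.61% were past 1.5-fold in either direction, 0.877% higher and 1.73% lower in iCKO. Both members were also past 2-fold, as were 0.160% of these genes in the higher and 0.133% in the lower direction. Placed among these genes, *Calb1* had the 3rd highest ratio and *Calb2* the 5th, and the median ratio of all of them was 0.01. *Calb1* averaged 0.5 per 10000 or more only in iCKO, the library where it was higher, so the minimum favours its call and its place. *Calb2* was above this level in both libraries.

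The distribution of *Calb2* over cells was broad in both libraries, with more cells at high levels in iCKO. In iCON cells *Calb2* had a median of 28.8 per 10000, a lowest value of 0 and a highest of 337, with quartiles of 1.22 and 69.5. In iCKO cells the median was 123, the range 0 to 352 and the quartiles 50.6 and 213. The libraries overlapped over nearly the whole range, and the difference lay in how many cells sat at each level, not in the highest level reached. *Calb2* was under 10 per 10000 in 37.2% of iCON and 9.34% of iCKO cells. It was 200 or over in 9.96% of iCON cells (95% exact binomial interval 7.38 to 13.1, counting error only) and in 28.7% of iCKO cells (24.4 to 33.4).

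The lowest *Calb2* levels lay near what other neurons showed. In the type II-like cells, which carry *Gata3*, *Plk5* and *Th* RNA, the pooled *Calb2* level was 0.460 per 10000 in iCON (43 UMIs, exact Poisson interval 0.333 to 0.620) and 1.55 in iCKO (23 UMIs, 0.981 to 2.32). The iCKO value rests on 1 of its 7 cells, which was at 7.45 and held 73.9% of these UMIs, and the medians were 0.331 and 0.478. After thinning to 20000 UMIs, 50% of the 30 type II-like iCON cells still had a *Calb2* UMI, against 85.5% of the 454 iCON cells that reached this depth. Before thinning, the median depth was 31229 UMIs in these type II-like cells and 49725.5 over all 462 iCON cells. A *Calb2* UMI on its own is therefore not read here as expression, and *Calb2* is described by its level.

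*Calb1* was sparse and unevenly spread. A *Calb1* UMI was found after thinning in 24.4% of iCON (20.6 to 28.7) and 50.1% of iCKO cells (45.1 to 55.1); without thinning the shares were 36.6% and 56.5%. In iCON the median level was 0 and the highest 6.22 per 10000, and in iCKO the median was 0.299 and the highest 7.96. No cell of either library reached 10. The tenth of iCON cells with most *Calb1* held 68.1% of its UMIs, against 48.2% in iCKO, so *Calb1* was spread over a larger part of the iCKO cells. Cells at 1 per 10000 or more made up 13.4% of iCON and 32.2% of iCKO cells. Type II-like cells held 1 *Calb1* UMI among 30 iCON cells and none among 7 iCKO cells, the latter allowing a share of cells with a UMI of up to 42.9% (3 counts of the total) or 41.0% (exact interval).

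*Pvalb* RNA was present in every cell of both libraries and varied least. In iCON it ranged from 6.53 to 71.7 per 10000 around a median of 38.4, and in iCKO from 11.8 to 61.0 around a median of 41.98. The means were 38.1 ± 8.69 and 42.2 ± 7.34 (SD over cells), a log2 ratio of 0.15, and 23.1% of the 3761 genes had a higher ratio. The ranges of the libraries overlapped almost completely. The spread of *Pvalb* over cells was 22.8% of its mean in iCON and 17.4% in iCKO, where counting error alone would give 7.75% and 8.54%. For *Calb2* the same spread was 136% and 70.6% of the mean.

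**Figure D1:**
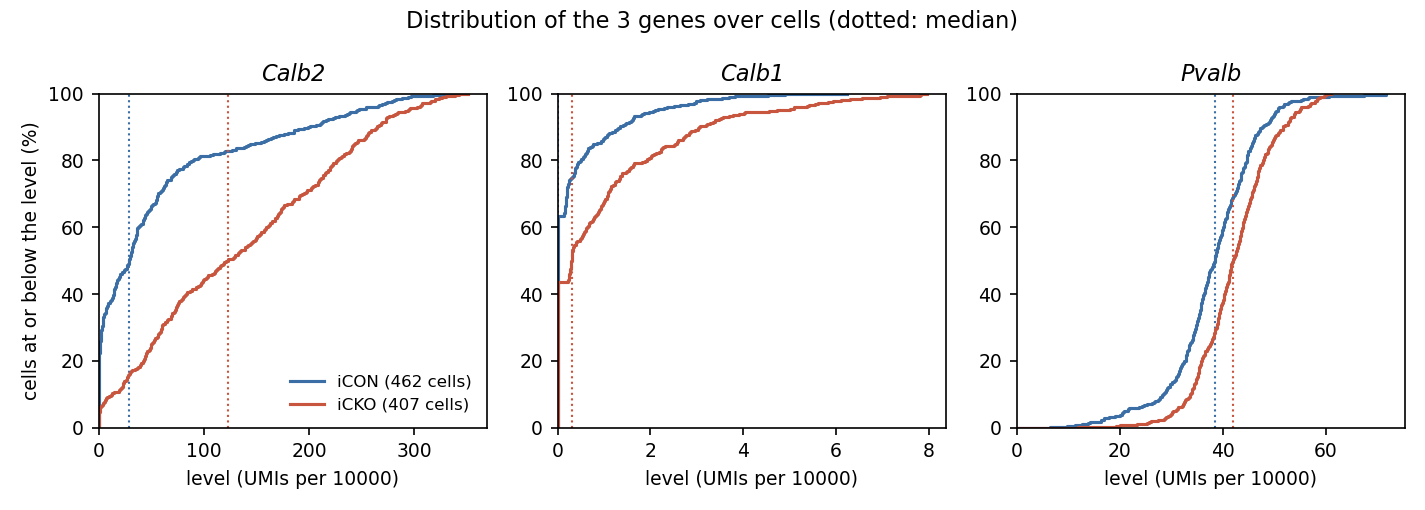
Cumulative distribution over cells of *Calb2*, *Calb1* and *Pvalb* in the iCON (462 cells, blue) and iCKO (407 cells, red) libraries: the x axis is the level in UMIs per 10000, the y axis the percent of cells at or below it, and dotted lines mark medians. The *Calb2* curve of iCKO lies to the right over most of the range (medians 28.8 and 123), the *Calb1* curves start at 63.4% and 43.5% of cells with no UMI, and the *Pvalb* curves run close together (medians 38.4 and 41.98).

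*Lypd1* and *Runx1* detection divided the cells by *Calb2* level in both libraries, and over all cells *Calb2* was higher in iCKO within each division. Detection means at least 1 UMI after thinning to 20000, a depth that 454 iCON and 405 iCKO cells reached and that 8 and 2 cells did not. A single UMI is a weak sign: *Lypd1* was found in 23.3% of the type II-like iCON cells (9.93 to 42.3), and 40 of the iCON and 15 of the iCKO cells with *Lypd1* RNA held exactly 1 UMI. In iCON the median *Calb2* level was 4.19 per 10000 in 250 cells with *Lypd1* RNA and 64.2 in 204 without it. The iCKO medians were 50.1 in 160 cells with *Lypd1* RNA and 190 in 245 without. When detection needed 3 UMIs, the medians with and without *Lypd1* RNA were 2.42 and 58.8 in iCON and 46.1 and 184 in iCKO. The iCKO cells with *Lypd1* RNA thus had a median near that of the iCON cells without it, and the interquartile ranges, 0.393 to 28.8 in iCON and 20.9 to 84.95 in iCKO for cells with *Lypd1*, overlapped only in part. By *Runx1*, the medians were 25.2 with and 70.1 without it in iCON, and 100.1 with and 220 without it in iCKO. When *Runx1* detection needed 3 UMIs, they were 22.1 and 32.7 in iCON and 96.9 and 152 in iCKO. Over all cells *Calb2* was therefore lower where *Runx1* RNA was found in each library. Mean *Runx1* RNA was not lower in iCKO, the library with more *Calb2*, and a 3′ count does not check the deletion. The iCON median without *Runx1* RNA rested on which cells were counted and on the detection rule. It was 154 without the type II-like cluster, 22.8 in *Xist* cells and 138 when *Runx1* was called at 1 UMI without thinning. In iCKO cells with Y-linked RNA the order was the other way. The medians were 98.3 in 65 cells with *Runx1* RNA and 78.5 in 16 without. The latter also lay below the 92.4 of the 49 matching iCON cells. All type II-like cells, 30 in iCON and 7 in iCKO, count as cells without *Runx1* RNA, and their *Calb2* medians were 0.331 and 0.478. How they divide between *Xist* and Y-linked cells was not counted, and their part in these medians was not tested.

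Crossing both genes gave the order of levels shown in the plot by class of detection. The highest *Calb2* median of each library was in cells with neither RNA: 165 per 10000 (100 iCON cells) and 233 (78 iCKO cells). Next came cells with *Runx1* and no *Lypd1* RNA, at 54.7 in 104 iCON cells and 170 in 167 iCKO cells. Cells with *Lypd1* RNA were lowest whether *Runx1* RNA was found (4.20 in 205 iCON cells, 50.1 in 142 iCKO cells) or not (2.39 in 45 iCON cells, 49.99 in 18 iCKO cells); these neighbours in the order did not differ beyond the intervals of their medians. On the means, the log2 ratio was 1.68 in cells with both RNAs, 1.30 with *Runx1* alone, 0.98 with *Lypd1* alone and 0.59 with neither. The means with *Lypd1* alone, 35.9 in iCON and 71.1 in iCKO, lay well above the medians. Few cells carried them, with highest values of 289 and 286 in cells that held 1 *Lypd1* UMI. The type II-like cells, which had no *Runx1* UMI, were divided between the classes without *Runx1* RNA. Without that cluster the medians were 199 (77 iCON cells) and 238 (72 iCKO cells) with neither RNA, and 6.44 (38 iCON cells) and 56.7 (17 iCKO cells) with *Lypd1* alone.

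**Figure D2:**
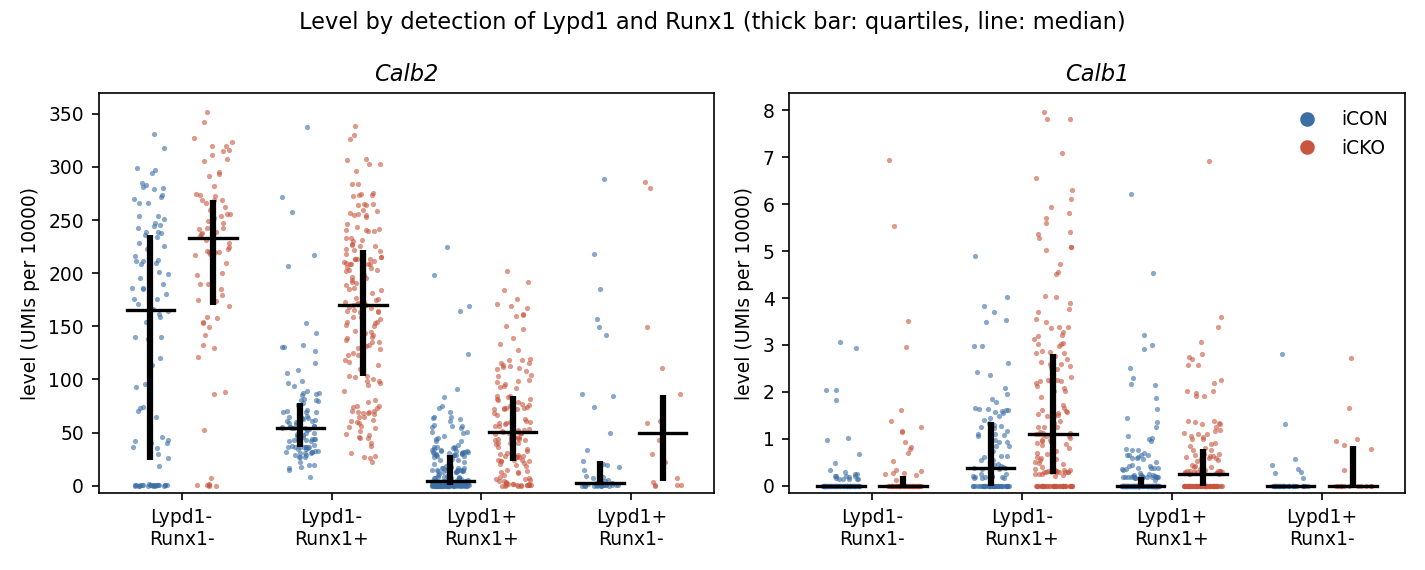
Level of *Calb2* (left) and *Calb1* (right) in UMIs per 10000 for single iCON (blue) and iCKO (red) cells, in the 4 classes of *Lypd1* and *Runx1* detection at 20000 UMIs; each point is a cell, thick bars span the quartiles and lines are medians. The iCKO median of *Calb2* is the higher one in every class, from 4.20 against 50.1 with both RNAs to 165 against 233 with neither.

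The amount of *Lypd1* RNA separated the libraries further. Of the cells with 20 or more *Lypd1* UMIs after thinning, 178 in iCON had *Calb2* levels from 0 to 169 per 10000 around a median of 1.59, and 125 in iCKO had levels from 0 to 192 around a median of 43.3. *Calb2* was 50 or over in 4 of the 178 iCON cells, 2.25% (0.616 to 5.65), and in 51 of the 125 iCKO cells, 40.8% (32.1 to 49.9). Cells high in both RNAs were thus a small minority of *Lypd1*-rich cells in iCON and a large part of them in iCKO. Most of the 125 iCKO cells lay outside cluster 0 (described below), the cluster led by *Lypd1*, which held 135 iCON and 18 iCKO cells. Within that cluster the *Calb2* medians were 0.923 in iCON and 4.47 in iCKO. Of the 4 iCON cells high in both, 1 was called a doublet, and of the 51 iCKO cells none was. The median depth of the 51 was 35399 UMIs against 33341.5 for the other *Lypd1*-rich iCKO cells. For the 4 iCON cells it was 66015, against 50681 for the other *Lypd1*-rich iCON cells. The difference had the same direction in *Xist* cells (1 of 96 against 44 of 103) and in cells with Y-linked RNA (3 of 78 against 6 of 19). Fewer cells lay between the extremes: 54 iCON and 17 iCKO cells had 1 to 2 *Lypd1* UMIs, with *Calb2* medians of 37.4 and 84.3, and 18 in each library had 3 to 19, with medians of 31.5 and 107.

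**Figure D3:**
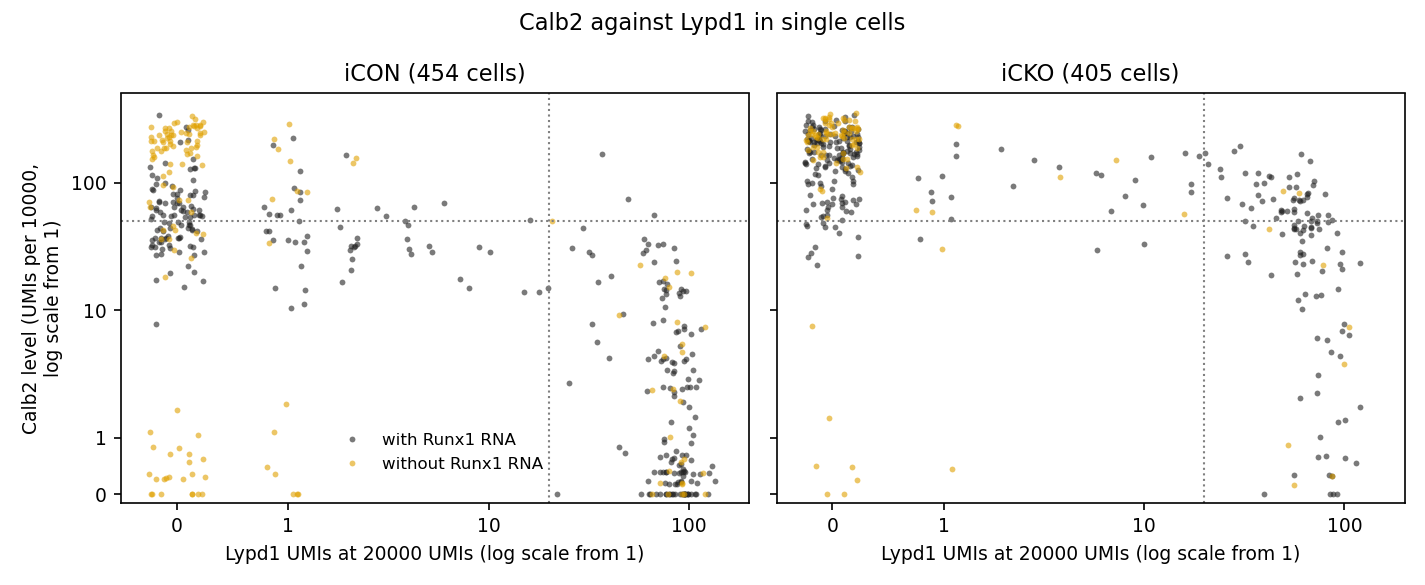
*Calb2* level (y axis, UMIs per 10000, log scale from 1) against *Lypd1* UMIs of the same cell at 20000 UMIs (x axis, log scale from 1, with jitter) in iCON (left, 454 cells) and iCKO (right, 405 cells); cells with *Runx1* RNA are dark and those without are yellow. Dotted lines mark 20 *Lypd1* UMIs and a *Calb2* level of 50, and the upper right field holds 4 iCON and 51 iCKO cells.

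*Runx1* detection is limited by depth, since 101 iCON and 80 iCKO cells had exactly 1 *Runx1* UMI after thinning. With more *Runx1* UMIs (0, 1, 2 to 3, and 4 or more), the *Calb2* medians were 70.1, 32.8, 16.5 and 18.4 per 10000 in iCON. In iCKO they were 220, 98.0, 93.6 and 110. Over all iCKO cells the larger step lay between 0 and 1 UMI. In iCON the interval of the median at 0 UMIs (29.6 to 140) held that at 1 UMI, and in *Xist* cells the medians were 22.8 without and 16.8 with *Runx1* RNA. In both libraries the medians were not lower at 4 or more UMIs than at 2 to 3. Type II-like cells had no *Runx1* UMI in either library.

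*Calb1* followed a different order over the same classes. Its highest mean in either library was in cells with *Runx1* and no *Lypd1* RNA, 0.842 per 10000 in iCON and 1.76 in iCKO, in which 48.1% and 73.1% of cells had a *Calb1* UMI after thinning. In cells with neither RNA, where *Calb2* was highest, *Calb1* averaged 0.181 and 0.398 and was found in 12 of 100 and 18 of 78 cells. With both RNAs the means were 0.282 and 0.586, and with *Lypd1* alone 0.138 and 0.461. The iCKO mean was higher in all 4 classes, with log2 ratios from 0.94 to 1.44. Along *Runx1* UMIs (0, 1, 2 to 3, and 4 or more), the share of cells with *Calb1* went from 12.4% through 28.7% and 29.5% to 33.3% in iCON. The same shares in iCKO were 26.0%, 50%, 56.8% and 64.4%. Among cells without *Lypd1* RNA, *Calb1* was thus found more often and *Calb2* was lower where *Runx1* RNA was present. Among those with *Lypd1* RNA the mean of *Calb2* was lower with *Runx1* RNA in both libraries (18.8 against 35.9 in iCON, 60.2 against 71.1 in iCKO). The *Calb2* medians over all cells were not. The means without *Runx1* RNA rested on few cells: the upper quartiles were 22.8 in iCON and 85.5 in iCKO, and the highest values 289 and 286. Each of these highest cells held 1 *Lypd1* UMI, and the order of the means is not read further. In these classes *Calb1* was found in 43 of 205 with and 6 of 45 without *Runx1* RNA in iCON, and in 56 of 142 and 7 of 18 in iCKO.

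*Pvalb* showed no such division. Its medians in the 4 classes lay between 37.8 and 38.6 per 10000 in iCON and between 41.5 and 44.6 in iCKO, and its log2 ratio between 0.13 and 0.18. The medians of the classes differed by less than the SD over cells of any one of them. It was higher in the type II-like cells, with means of 45.8 ± 12.4 in 30 iCON cells and 51.2 ± 10.2 in 7 iCKO cells.

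Cells rich in both *Calb1* and *Calb2* were few in iCON and many in iCKO. Cells with *Calb1* at 1 per 10000 or more and *Calb2* at 50 or more numbered 22 in iCON, 4.76% of cells (3.01 to 7.12), and 117 in iCKO, 28.7% (24.4 to 33.4). *Calb1* at that level with *Calb2* under 50 was found in 8.66% of iCON and 3.44% of iCKO cells. *Calb2* at 50 or more without *Calb1* at that level was found in 29.2% and 46.7%, and neither in 57.4% and 21.1%. Thus most iCON cells with *Calb1* at 1 or more were under 50 for *Calb2*, and most such iCKO cells were at or above it. The same held with *Calb1* under 1, where 57.4% of iCON cells were under and 29.2% at or above 50. In iCKO these shares were 21.1% and 46.7%. The change of side between the libraries is therefore not read as particular to cells with *Calb1*. *Pvalb* was at 20 per 10000 or more in all cells with both other buffers at these levels, and in 94.1% to 97.4% of the other iCON and 98.8% to 100% of the other iCKO cells, so these did not stand apart.

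Along the *Calb2* level, *Calb1* detection peaked at intermediate levels in iCON and at higher levels in iCKO. For *Calb2* under 10, 10 to 50, 50 to 100, 100 to 200 and over 200 per 10000, the share of iCON cells with a *Calb1* UMI after thinning was 5.23%, 48.0%, 49.3%, 10.5% and 4.35%. In iCKO the shares were 10.5%, 41.7%, 52.5%, 69.1% and 47.9%. The intervals of the libraries thus overlapped where *Calb2* was under 100 and not above it. At 200 or over, it was found in 2 of 46 cells of iCON (0.531 to 14.8%) and in 56 of 117 of iCKO (38.5 to 57.3%). The *Calb2* class of 10 to under 50 held 63.0% of all *Calb1* UMIs in iCON and 7.68% in iCKO, while 100 to under 200 held 3.33% and 44.4%. The cells with *Calb1* at 2 or more, 26 in iCON and 79 in iCKO, had *Calb2* medians of 43.4 (range 11.1 to 171) and 165 (22.6 to 303).

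In the iCKO cells with *Calb2* at 100 or over, *Calb1* was detected more often where *Runx1* RNA was found. Where *Calb2* was 200 or over, *Runx1* RNA was found in 6 of 46 iCON and 65 of 117 iCKO cells. In iCKO, *Calb1* was detected in 46 of 65 such cells with *Runx1* RNA, 70.8% (58.2 to 81.4), and in 10 of 52 without it, 19.2% (9.63 to 32.5). In iCON it was detected in 0 of 6 with *Runx1* RNA, which allows a share of up to 50% (3 counts of the total) or 45.9% (exact interval), and in 2 of 40 without (0.611 to 16.9%). The shares without *Runx1* RNA thus overlapped in their intervals between the libraries. In the class of 100 to under 200, *Calb1* was detected in 76.7% of 90 iCKO cells with *Runx1* RNA (66.6 to 84.9) and 35.0% of 20 without. In iCON it was detected there in 2 of 13 with *Runx1* RNA (1.92 to 45.4%) and 2 of 25 without (0.984 to 26.0%). In iCKO this order was not seen in the classes of 50 to under 100 and under 10. *Calb1* was detected in 37 of 72 cells with and 5 of 8 without *Runx1* RNA in the former, and in 1 of 25 and 3 of 13 in the latter. At 10 to under 50, *Calb1* was detected in 25 of 60 iCKO cells, all among the 57 with *Runx1* RNA. Too few cells there lacked *Runx1* RNA to compare. In iCON at 50 to under 100 *Calb1* was detected in 29 of 60 cells with and 6 of 11 without *Runx1* RNA.

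**Figure D4:**
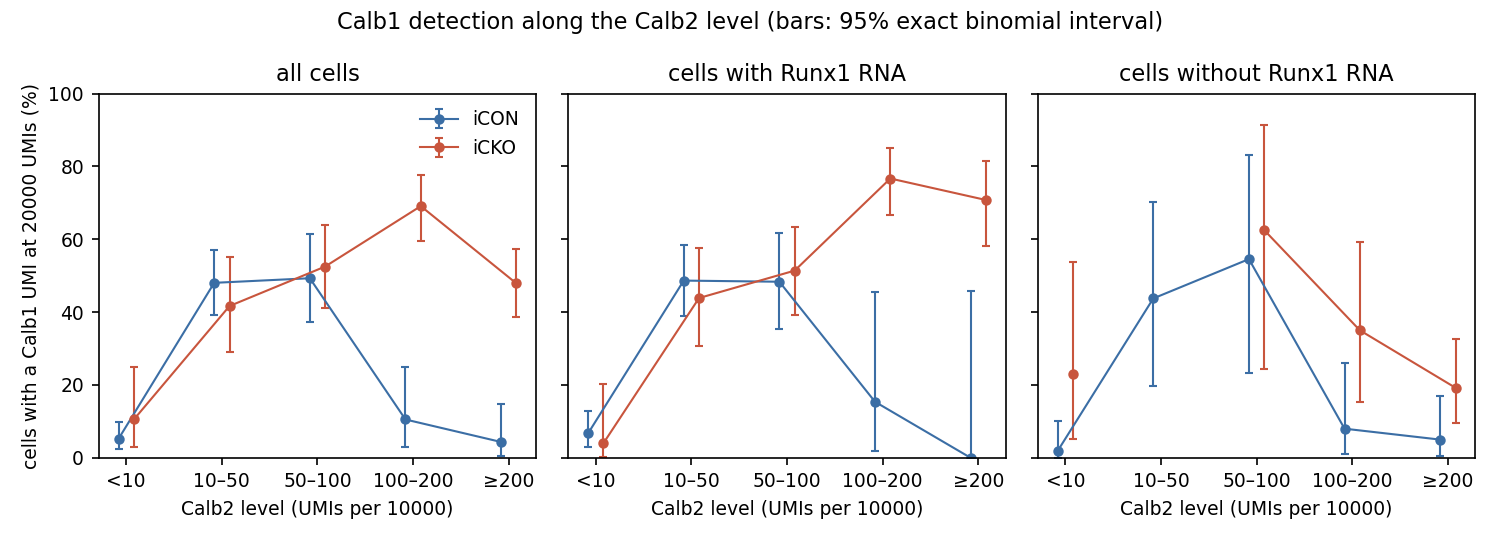
Percent of cells with a *Calb1* UMI at 20000 UMIs (y axis) in 5 classes of *Calb2* level (x axis, UMIs per 10000) for iCON (blue) and iCKO (red), over all cells, cells with *Runx1* RNA and cells without; bars are 95% exact binomial intervals, which cover counting error only, and a class with under 5 cells has no point. Over all cells the iCON share falls from 49.3% to 10.5% where *Calb2* passes 100, and the iCKO share reaches 69.1% there.

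The libraries differed in sex-linked and myelin RNA, and the joint pattern was therefore read within each group of cells. At *Calb2* of 200 or over, *Calb1* was detected in 0 of 31 iCON and 51 of 101 iCKO cells with *Xist*, the former allowing a share of up to 9.68% (3 counts of the total) or 11.2% (exact interval). In cells with Y-linked RNA it was detected at 200 or over in 2 of 14 of iCON (1.78 to 42.8%) and 5 of 16 of iCKO (11.02 to 58.7%), intervals that overlap, between 100 and 200 in 1 of 14 and 21 of 23, and between 50 and 100 in 23 of 44 and 15 of 19. The iCKO share was also the higher one at 200 or over in cells with low myelin-gene RNA (under 2 per 10000; 2 of 17 and 21 of 48) and with high (0 of 29 and 35 of 69). With low myelin-gene RNA the intervals, 1.46 to 36.4% in iCON and 29.5 to 58.8% in iCKO, overlapped. The log2 ratio of mean *Calb1* was 1.67 in *Xist* cells and 1.21 in cells with Y-linked RNA, and 2.05 and 1.10 in cells with low and high myelin-gene RNA. That of *Calb2* was 1.18, 1.06, 0.80 and 1.31 in the same order, and that of *Pvalb* 0.09, 0.18, 0.09 and 0.14. The ratios of *Calb1* and *Calb2* thus stayed above 1 within each sex; with low myelin-gene RNA the *Calb1* ratio was larger and the *Calb2* ratio smaller than with high. RNA of hair cells, which can hold all 3 proteins, was checked with a list of 9 genes, of which 4 (*Myo7a*, *Otof*, *Pcp4* and *Slc17a8*) are in the table: their summed level had a median of 0 in both libraries. It ranged up to 1.18 per 10000 in iCON and up to 138 in iCKO, where 2 cells held 1100 and 442 *Pcp4* UMIs, and *Calb2* in those cells was 0.252 and 0.165.

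Clusters built without the members, the subtype markers and *Runx1* gave a further view, and are called by number because some were nearly all of 1 library. Cluster 0, with *Lypd1* leading, held 135 iCON and 18 iCKO cells, and its *Calb2* median was 0.923 and 4.47 per 10000. Cluster 1, with both libraries well filled (66 and 80 cells), had *Calb2* medians of 26.0 and 63.7. Clusters 3 and 5 were *Calb2*-rich in both libraries, with medians of 176 in 67 iCON and 214 in 70 iCKO cells of cluster 3, and 225 in 30 iCON and 239 in 71 iCKO cells of cluster 5. In proportion, the *Calb1* means of iCON and iCKO in these clusters differed far more than the *Calb2* means. For *Calb1* they were 0.142 ± 0.453 against 1.54 ± 1.95 in cluster 3, and 0.0625 ± 0.159 against 1.56 ± 2.18 in cluster 5 (SD over cells). For *Calb2* they were 163 against 209 and 221 against 233. The *Calb1* medians were 0 against 0.769 and 0 against 0.301. In cluster 3 *Calb2* ranged from 0 to 337 in iCON and from 58.9 to 312 in iCKO. Cluster 2, which had the highest *Calb1* mean in iCON (0.975 ± 1.19 in 133 cells), held 11 iCKO cells, and clusters 4 and 6 held 102 and 48 iCKO cells with 1 and 0 from iCON.

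Across cells, the members were weakly related to each other. The Spearman correlation of *Calb1* and *Calb2* was 0.27 over 462 iCON and 0.12 over 407 iCKO cells, and that of *Calb2* and *Pvalb* was -0.00 and 0.12. The last value turned to -0.15 in iCKO cells with Y-linked RNA and to -0.043 in those with low myelin-gene RNA, and was 0.23 in those with high. These cells share a library, its depth and the scaling to a common total, and the values are a description. *Calb2* was more closely related to *Lypd1*, at -0.66 and -0.67. The rise and fall of *Calb1* along *Calb2* in iCON is not caught by a rank correlation.

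The genes whose pattern over type I cells was most like each member were named by the lower of the correlations in 432 iCON and 400 iCKO cells outside the type II-like cluster, among 8434 genes. For *Calb2* these were *Cd24a* (Spearman 0.79 in iCON and 0.79 in iCKO), *Zfp804a* (0.71 and 0.68), *Kcnk1*, which encodes a two-pore-domain potassium channel (0.70 and 0.64), *Rxrg*, a retinoid X receptor (0.65 and 0.62), and *Paqr4* (0.60 and 0.57). The most opposed to it were *Rbfox3*, which encodes the neuronal splicing factor NeuN (-0.73 and -0.71), *Lypd1* (-0.80 and -0.70) and *Pcsk2*, a prohormone convertase (-0.75 and -0.65). For *Pvalb* they were *Sncb* (0.50 and 0.42), *Rab3a*, a synaptic vesicle GTPase (0.53 and 0.41), *Cfl1*, *Sepw1* and *Gnas*, with *Malat1*, *Mir6236* and *Rn45s* most opposed. *Malat1*, a nuclear non-coding RNA, averaged 228 per 10000 in iCON and 170.5 in iCKO, and its correlation with *Pvalb* was -0.48 and -0.37. *Rn45s* averaged 136 in iCON and 80.9 in iCKO (correlations -0.42 and -0.30), and *Mir6236* 3.49 and 1.75 (-0.45 and -0.34). The part of these RNAs in the *Pvalb* values was not tested. For *Calb1* the closest were *Chgb*, which encodes the granule protein chromogranin B (0.36 and 0.27), *Tmem196*, *Sema3d*, *1700026D08Rik* and *Aes*, all weak in these sparse counts, and the most opposed were *Rph3a*, *Lypd1* and *Htra1*.

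The other calcium-handling genes were listed by role. Of 54 listed genes besides the members, 45 are in the table and 24 passed the minimum. Of these, 1 was past 1.5-fold higher and 5 were past it lower in iCKO, where 0.877% and 1.73% of all 3761 genes were. Of the lower genes, *Kcnip2*, *Rcn2* and *S100a13* averaged 0.5 per 10000 or more only in iCON, where they were higher. The minimum favours such calls, and the count is not read further. The median log2 ratio was 0.06, against 0.01 over all 3761 genes. *Cabp1*, a calmodulin-like regulator of calcium channels, was the one higher, at 2.61 per 10000 in iCON and 4.15 in iCKO (log2 ratio 0.66), and at a ratio of 0.41, short of 1.5-fold, in cells with Y-linked RNA. Among neuronal calcium sensors, *Kcnip2*, a subunit of A-type potassium channels, was lower in iCKO (0.588 and 0.335, log2 ratio -0.73), and the best measured, *Vsnl1*, which encodes visinin-like protein, was at 7.10 and 6.59 (-0.11). None of the 5 extrusion and store uptake genes past the minimum was past 1.5-fold; *Atp2a2*, the endoplasmic reticulum calcium pump, was at 4.81 and 6.16 (0.35).

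Of the 5 lower genes, 3 were of the S100 family, small EF-hand proteins that are also used by glia, and all but one of these 3 calls were lost without the type II-like cells. *S100a1* was at 2.18 and 1.34 (log2 ratio -0.67), *S100a6* at 2.41 and 1.35 (-0.81) and *S100a13* at 1.06 and 0.298 (-1.67), while *S100b*, the best measured, was at 11.3 and 12.6 (0.15). Beside these values stand the lower myelin-gene RNA and the fewer type II-like cells of iCKO. Without the type II-like cluster the log2 ratio was -0.34 for *S100a13* and -0.50 for *S100a1*, both short of 1.5-fold, while *S100a6* was at -0.83, *Kcnip2* at -0.80, *Rcn2* at -0.59 and *Cabp1* at 0.60. *S100a1* was at -0.99 in *Xist* cells and -0.065 in cells with Y-linked RNA, and at -1.44 and -0.36 with low and high myelin-gene RNA, so that it was short of 1.5-fold in the Y-linked and high-myelin cells. In cells with Y-linked RNA *Kcnip2* (-0.51) and *Rcn2* (-0.24) were short of it too, the latter also with low myelin-gene RNA (-0.53). *S100a13* was higher in iCKO in the cells with Y-linked RNA, at 0.143 and 1.04 per 10000 (log2 ratio 2.50), the reverse of all cells together. *S100a6* averaged 0.0027 and 0.0128 per 10000 in the iCON and iCKO cells with low myelin-gene RNA, against 3.08 and 2.15 in those with high, where its ratio was -0.51. Of the other EF-hand genes, *Rcn2*, a calcium-binding protein of the secretory pathway, was at 0.616 and 0.388 (-0.61), and *Sdf4* at 1.46 and 1.53 (0.06).

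**Figure D5:**
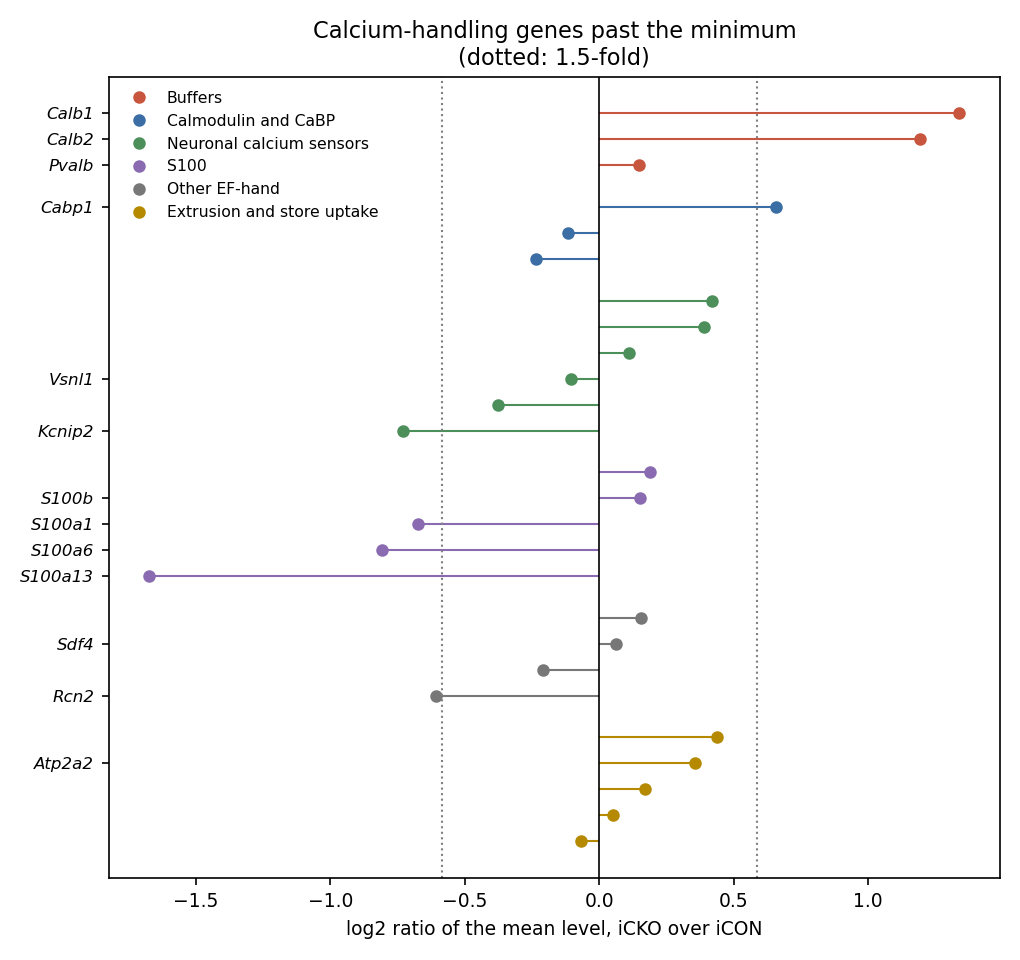
Log2 ratio of the mean level in iCKO over iCON (x axis) for 26 of the 27 calcium-handling genes past the minimum, grouped and coloured by role, with the members, the genes past 1.5-fold and the best measured gene of a list labelled; dotted lines mark 1.5-fold in each direction. *Calb1* (1.34) and *Calb2* (1.19) have the highest ratios, *Pvalb* lies at 0.15, and *S100a13* (-1.67) has the lowest.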

How the data were processed

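The deposited table holds, per gene and cell, ln(1 + CPM), the natural log of CPM values (UMI counts that the authors scaled to a common total in each cell), a unit settled from the values. The submitters' processing notes name Cell Ranger, Seurat and mm10, with no role; filters on cells and genes are not given in the sources used here. A deposited annotation, of the kind other, assigns each cell to a library. Every cell summed to that total, and 100% of nonzero values lay within 1e-06 of a whole multiple of the cell's smallest step, so whole UMIs were computed.

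Levels are UMIs per 10000, and log2 ratios use means over cells plus a pseudocount of 0.05. With 1 library per group there was no test and no p-value; exact Poisson and Clopper-Pearson intervals at 95% cover counting error only. Detection was called after random thinning to 20000 UMIs. Cells were clustered with scanpy 1.11.5 and leidenalg 0.10.2 (2000 variable genes, 20 components, 15 neighbours, resolution 0.5), leaving out the members, the markers and *Runx1*. The type II-like name comes from a list of 6 markers (*Prph*, *Gata3*, *Th*, *Plk5*, *Smad3* and *Etv4*), 4 of them detected in at least 10% of the cluster's cells and 2, *Plk5* and *Th*, among its 10 leading genes. A doublet caller marked 1 iCON and 4 iCKO cells, which were kept. The computations were tested on simulated data. Low myelin-gene RNA means under 2 per 10000 summed over a list of myelin genes. Genes were named from calcium-handling lists when past 1.5-fold or best measured in a list (1 such gene is not reported here), and by likeness to a member (the 5 closest and 3 most opposed). The members, lists and rules were chosen with earlier results of these data known. Loop sequences and coordinates come from GENCODE M21 (GRCm38).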

Additional observations from a re-analysis of the deposited data

Results flagged for a closer look

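*S100a13*, of the S100 list, had a log2 ratio (iCKO over iCON) of 2.50 among cells with Y-linked RNA but no *Xist*, and of -3.59 among cells with *Xist* but no Y-linked RNA. The opposite directions in the 2 sexes drew attention to it, and the difference was not tested. Over all cells the ratio was -1.67, and without the type II-like cluster it was -0.34. *S100a13* is among the 10 leading genes of that cluster. How the cells of the cluster divide between the sexes in each library was not counted.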

How the results depend on the processing

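The log2 ratio stayed above 0 in all 16 alternatives of each member, ranging from 0.80 to 2.05 for *Calb1*, 0.80 to 1.39 for *Calb2* and 0.086 to 0.20 for *Pvalb*. Values that moved beyond counting error follow, by setting, and the cause was not tested unless the setting gives it. A pseudocount of 0.5 gave 0.80 for *Calb1*. The ratio of summed UMIs gave 1.12 for *Calb2* and 0.13 for *Pvalb*, scaling by the median of gene ratios gave 1.15 and 0.16, and thinning gave 0.13 for *Pvalb*. Without the type II-like cluster *Calb2* was at 1.12, and without the 5 highest cells of each library at 1.24. In *Xist* cells *Calb1* was at 1.67 and *Pvalb* at 0.093, and in cells with Y-linked RNA *Calb1*, *Calb2* and *Pvalb* were at 1.21, 1.06 and 0.18. With low myelin-gene RNA they were at 2.05, 0.80 and 0.086, and with high, *Calb1* and *Calb2* were at 1.10 and 1.31. Cells under the median depth of their library gave 1.57, 1.39 and 0.20, and those at or above it 1.10, 1.06 and 0.10. Equal weights for the 4 classes of *Lypd1* and *Runx1* detection, chosen after seeing the data, gave 1.05 for *Calb1* and 0.96 for *Calb2*.

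Of the *Calb2* medians, that of iCON cells with *Lypd1* was 2.42 per 10000 when detection needed 3 UMIs, and that of iCKO cells without *Runx1* was 152. With low myelin-gene RNA the medians were 82.6 in iCON cells without *Lypd1*, 34.6 and 149 in iCON cells with and without *Runx1*, and 119 in iCKO cells with *Runx1*. In cells with Y-linked RNA they were 36.2 and 152 in iCKO cells with and without *Lypd1*, and 78.5 in those without *Runx1*. In iCON cells without *Runx1* the median was 154 without the type II-like cluster and 22.8 in *Xist* cells. The correlation of *Calb2* and *Pvalb* in iCKO turned to -0.15 in cells with Y-linked RNA and -0.043 with low myelin-gene RNA. Of the calcium lists with members, 3 genes were past 1.5-fold higher, 5 in *Xist* cells; 5 were lower, 1 at a fold of 2 and 2 in cells with Y-linked RNA. Of the other values, 132 kept to the reported one, 30 moved and 2, these correlations, turned. No paired analysis was possible because each group is 1 library, so no library could be left out either. Depth limits the detection of *Calb1* and *Runx1*, and many cells hold a single *Runx1* UMI.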
